A study of Ericerus pela with 8 samples.

Results

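The sarcomere and muscle proteins of the Chinese white wax scale, Ericerus pela, were followed through 8 RNA-seq libraries. A unigene, an assembled transcript or piece of one, was a member when its best protein match named a muscle or sarcomere protein such as troponin, tropomyosin, titin, kettin, projectin, paramyosin, a myosin light chain or arginine kinase, and when it had at least 20 reads in at least 1 library. The rule gave 143 unigenes of the 147509 in the series, and of the 45593 that reached 20 reads. Each library was the only one of its group: female first-instar larvae, male first-instar larvae, female second-instar larvae, male second-instar larvae, early-stage, middle-stage and late-stage female adults, and adult males. The labels give neither strain, age nor treatment, and how many insects went into a library is not given in the sources used here. With 1 library per group, a ratio between 2 libraries has no replicate check, and its 95% interval covers counting error only.

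In muscle, thick filaments of myosin slide along thin filaments of actin, and troponin and tropomyosin on the thin filament let this happen when calcium is released from the sarcoplasmic reticulum. Very long proteins of the titin family, among them kettin and projectin in insects, tie the thick filaments to the Z-discs that bound each sarcomere. Paramyosin forms the core of invertebrate thick filaments, and arginine kinase rebuilds ATP from phosphoarginine. In this scale insect the adult male has wings, while the adult female has none and stays fixed to the plant.

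By name, 64 of the members were giant or linker proteins (53 titin, 9 kettin and 2 projectin), 37 were grouped as thick filament proteins (14 myosin light chain kinases, 10 paramyosins, 5 myosin light chains, 1 muscle and 7 non-muscle or smooth-muscle myosin heavy chains), 3 belonged to thin filaments, 5 to LIM proteins of the Z-disc, 2 to the calcium store, and 5 were arginine kinase. The other 27 were 17 unigenes of muscle-specific protein 300, 5 of the M-line protein unc-89 and 5 with muscle in the name. The word muscle also brought in matches that are not sarcomere proteins, among them those 7 myosin heavy chains. Most members were short: lengths ran from 151 to 3292 bases with a median of 281. Several unigenes with the same match may be pieces of 1 transcript and are not independent of each other. Of the best matches 139 were to arthropods and 4 to other animals. Just inside the minimum were unc-89 (Unigene138925_FOB) and myosin light chain kinase (Unigene140564_FOB), each with at most 23 reads in a library. Just outside were a troponin H (Unigene86974_FOB) at 19 reads and a Troponin C (Unigene60039_FOB) at 17, and 18 rule matches in all fell below 20 reads. Of the members, 16 reached the minimum in the male adult library alone, so that they had to be higher there. A library held 1460674 to 2303199 reads, and 131 members (91.6%) were read in all 8 libraries, against 85.7% of all unigenes that reached 20 reads.

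Levels are reads scaled to a common library total of 1000000 (CPM), or RPKM where named. The members took a larger share of the reads in the male adult library than in any other. Their share was 0.311% in female and 0.332% in male first-instar larvae, and 0.640% in female and 0.609% in male second-instar larvae. In female adults it was 0.567% at the early, 0.327% at the middle and 0.300% at the late stage. In male adults it was 1.51%. The sexes were thus close at both larval stages and apart as adults. The male adult library held the highest level of 103 of the 143 members (72.0%), against 17.7% of all unigenes that reached 20 reads (130 of the members under TMM scaling, which resets library sizes by the bulk of unigenes), and the late female adult library held the lowest level of 69, against 18.7%. These are RNA levels in whole extracts, in which fewer cells of a type and less RNA per cell cannot be told apart.

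**Figure D1:**
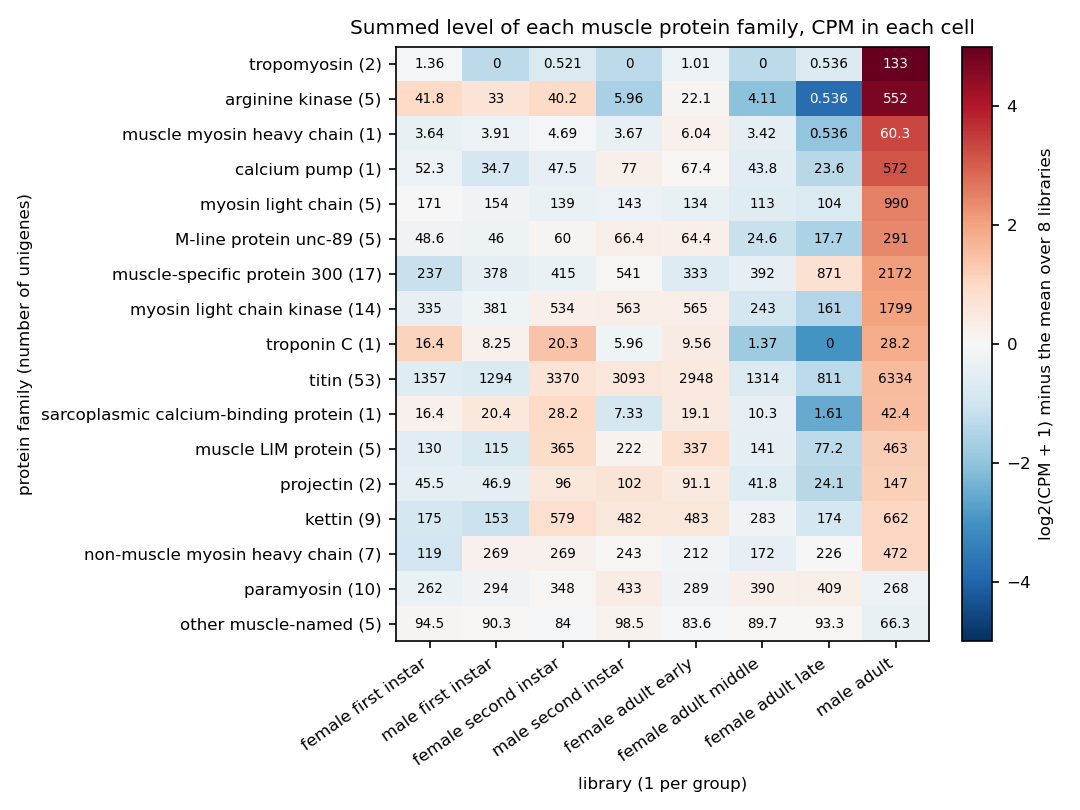
Summed level of each protein family (rows, with the number of unigenes) in each of the 8 libraries (columns), printed in CPM and coloured by log2(CPM + 1) minus the mean over the libraries. The male adult column is the reddest for most families, titin reaching 6334 CPM there, while paramyosin is nearly level across the row, from 262 to 433 CPM.

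In adults, 119 members were higher in the male library than in all 3 female libraries, against 24.5% of all unigenes, and 6 were lower than in all 3, against 46.5%. A member was counted as 4-fold different when log2 of the ratio, with 1 CPM added to each level, was at least 2 in size and either library held at least 20 reads. By that rule 37 of 142 members tested were higher in male than in early female adults (all unigenes: 9.31%), 63 of 139 than in middle (16.4%) and 81 of 140 than in late female adults (16.9%). In the other direction 0 members passed against the early stage (16.8%), 1 against the middle stage (18.9%) and 0 against the late stage (20.7%). Of 139 members tested against all 3 stages, 28 were 4-fold higher against every stage (9.34%) and 0 lower (7.8%). Of the 28, 12 were among the 16 members that reached the minimum in male adults alone. The count of 28 went to 59 without the early female library and to 45 with TMM scaling (all unigenes with TMM: 3568 of 26437). With TMM 62, 89 and 92 members were higher than in early, middle and late females and 0 lower than in any of them. Of all unigenes 4465 of 33525, 6228 of 29540 and 6821 of 32592 were then higher, also more than with header totals, and 4112, 4053 and 4771 lower. The median log2 ratio of the members was 1.22 against early, 1.91 against middle and 2.70 against late females, beside medians of -0.52, -0.37 and -0.62 for all unigenes.

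The adult difference was tested with edgeR's quasi-likelihood test over the 8 libraries, with the spread taken from departures among stages, so that it assumes that the lone male adult library varies like the others. With Benjamini-Hochberg adjustment over 61335 unigenes at 0.05, 24 of the 143 members were higher in adult males (all unigenes: 2.61%) and 0 lower (0.67%). The median log2 difference was 2.04 for the members and -0.24 for all unigenes, and 93 members had an unadjusted p under 0.05. Of the 24, 20 were also among the 28 called 4-fold against all 3 female stages, which is 83.3% of the first list and 71.4% of the second. Of the 24, 10 were among the 16 members that reached the minimum in male adults alone. By role the 24 were 8 of the thick filament group (3 light chains, 3 light chain kinases, the muscle heavy chain and 1 heavy chain called nonmuscle or smooth muscle), 5 of the group of other proteins, 4 arginine kinases, 4 giant proteins, and 1 each from the thin filament, the Z-disc and the calcium store. The count rested on single libraries: it was 0, among all unigenes as well, without the female or male first-instar, the female or male second-instar or the middle female adult library, 87 without the early and 34 without the late female adult library. It was 12 with header totals, 49 with DESeq2 and 79 with no filter on low counts. In each of these settings the number of all unigenes called higher moved in the same direction as that of the members. TMM scaling, used in the test, raised male adult levels by 0.51 to 0.54 on the log2 scale against the female adults, compared with the header totals used for levels here.

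**Figure D2:**
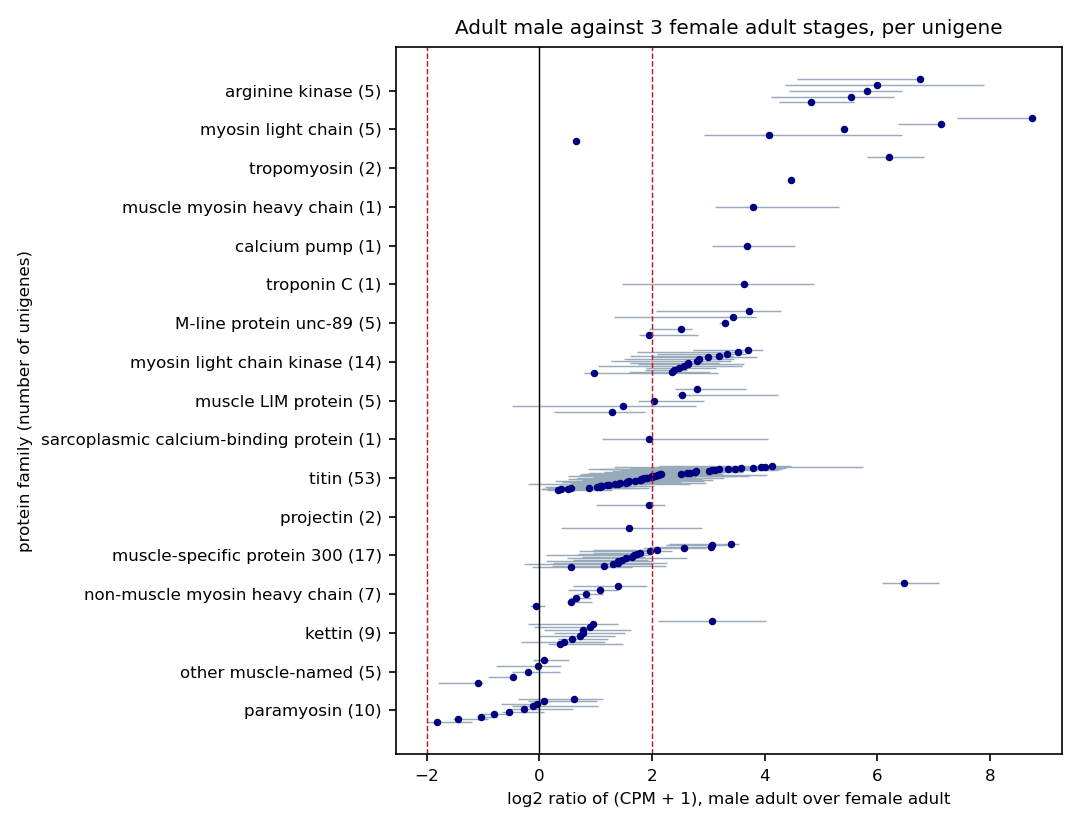
Each point is a unigene's median log2 ratio of (CPM + 1) of the male adult library over the 3 female adult libraries, the line spans the 3 ratios, rows are protein families, and the dashed lines mark 4-fold. Arginine kinase, tropomyosin and 4 of the 5 myosin light chains lie beyond 4-fold throughout, and paramyosin lies around 0.

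Levels of other tissues, taken from lists of match names, were also summed in the adult libraries. Summed over the 26 unigenes of the neuronal list, the level was 752 CPM in male adults and 657 to 791 CPM in the 3 female adult libraries. Over 14 germline unigenes it was 86.9 CPM in male adults, with 1 of the 14 at 0 reads, and 207 to 578 CPM in female adults. Over 19 fat body and yolk unigenes it was 284 CPM in male adults, with 8 at 0 reads, and 308 CPM at the early, 381 at the middle and 2133 at the late female stage. Over 47 cuticle unigenes it was 1108 CPM in male adults, with 3 at 0, and 534 to 1896 CPM in female adults. For the neuronal and cuticle lists male adults thus lay within the range of the female adults with header totals. TMM scaling raises male adult levels by 0.51 to 0.54 on the log2 scale. That is enough to take the neuronal sum, though not the cuticle sum, above the range. In the edgeR fit with TMM, the median log2 difference was 0.58 for the neuronal and -1.24 for the cuticle list (all unigenes: -0.24). Sums over names are not pure tissue levels. The neuronal list had Syntaxin-18 (Unigene154487_FOB) and Neurexin IV (Unigene157236_FOB) among its most read. In the fat body and yolk list a vitellogenin receptor (Unigene157486_FOB) gave 583 CPM in late females. The part of these tissues in the differences of muscle proteins was not tested.

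Tropomyosin, which covers the myosin-binding sites of the thin filament at rest, had 2 members, and both reached the read minimum in the male adult library alone. Tropomyosin 2 (Unigene98349_FOB) had 3 reads in female and 0 in male first-instar larvae, 1 in female and 0 in male second-instar larvae, 2, 0 and 1 in early, middle and late female adults, and 206 in male adults. Tropomyosin-1 (Unigene77654_FOB) had 39 reads in male adults and 0 in the other 7 libraries. No other library came near the male adults for either unigene. A tropomyosin below the minimum (Unigene147147_FOB) ran the other way, with 8, 2, 9 and 6 reads in the larval libraries, 14, 5 and 4 in female adults and 0 in male adults, and another Tropomyosin-1 (Unigene89389_FOB) had at most 3 reads in any library. The ratio of male adults to early females was 111-fold for tropomyosin 2 (95% interval 30.4 to 924), and at a floor of 3 reads per library it was at least 54.5-fold against middle females. For Tropomyosin-1 it was at least 14.0-fold, 10.3-fold and 13.2-fold against the early, middle and late stage. The SE given here with edgeR differences is the size of the difference divided by the square root of the test's F statistic. It is not a spread measured among male adult libraries. Tropomyosin 2 was 7.92 ± 0.76 (SE) higher in adult males on the log2 scale by edgeR (Benjamini-Hochberg adjusted p = 0.0131). Tropomyosin-1 did not pass (edgeR, Benjamini-Hochberg adjusted p = 0.0795).

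Troponin C (Unigene144142_FOB), the calcium sensor of the thin filament, had another pattern. It had 36 and 19 reads in female and male first-instar larvae, 39 and 13 at the second instar, 19, 2 and 0 through the female adult stages, and 52 in male adults. Larvae and early female adults held it at 13 to 39 reads, below the male adult and above the middle and late females. Male adults were 2.95-fold above early females (1.72 to 5.29) and at least 17.6-fold above late females. It did not pass the edgeR test (log2 difference 3.32 ± 1.24 SE, Benjamini-Hochberg adjusted p = 0.172).

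The myosin light chains, which brace and tune the myosin head, split into chains found mainly in the adult male and chains read in all 8 libraries. Myosin alkali light chain 1 (Unigene115288_FOB) had 2 and 6 reads in female and male first-instar larvae, 3 and 23 at the second instar, 3, 0 and 0 in female adults, and 784 in male adults. One myosin 2 light chain (Unigene62219_FOB) had 2, 3, 0 and 4 reads in the larval libraries in the same order, 0, 1 and 0 in female adults, and 254 in male adults. The chain Unigene50719_FOB had 76 reads in male adults and 0 in the other 7 libraries. These 3 chains were at or near 0 in every female adult library. The alkali light chain was 282-fold higher in male than early female adults (96.2 to 1371) and at least 207-fold and 265-fold higher than in the middle and late ones. All 3 passed the adult edgeR test with Benjamini-Hochberg adjustment, at adjusted p = 0.0105, 0.0121 and 0.0426. Unigene62219_FOB and Unigene50719_FOB, however, reached the read minimum in male adults alone, so that they had to be higher there.

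A second myosin 2 light chain (Unigene60234_FOB) was also read in larvae, with 133 and 75 reads at the first instar and 69 and 46 at the second. It had 57, 18 and 3 reads through the female adult stages and 412 in male adults, so the female series descended while the male adult stood above every library. The male adult level was 7.80-fold the early female level (5.90 to 10.5) and 139-fold the late one (47.3 to 677). It missed the edgeR threshold (log2 difference 4.39 ± 0.99 SE, Benjamini-Hochberg adjusted p = 0.0663). Myosin regulatory light chain 2 of smooth-muscle type (Unigene121008_FOB) had 240, 271, 195 and 239 reads in the larval libraries, 206, 146 and 191 in female adults and 296 in male adults. It was highest in male adults. Its median log2 ratio over female adults was 0.65, before TMM scaling added 0.51 to 0.54. Per length it was the most abundant of these chains in all 7 libraries other than male adults, at 346 to 407 RPKM (reads per unigene length and library total). In male adults, at 556 RPKM, it was exceeded by the alkali light chain at 1577 RPKM, by the second myosin 2 light chain at 1257 RPKM and by the first at 762 RPKM.

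**Figure D3:**
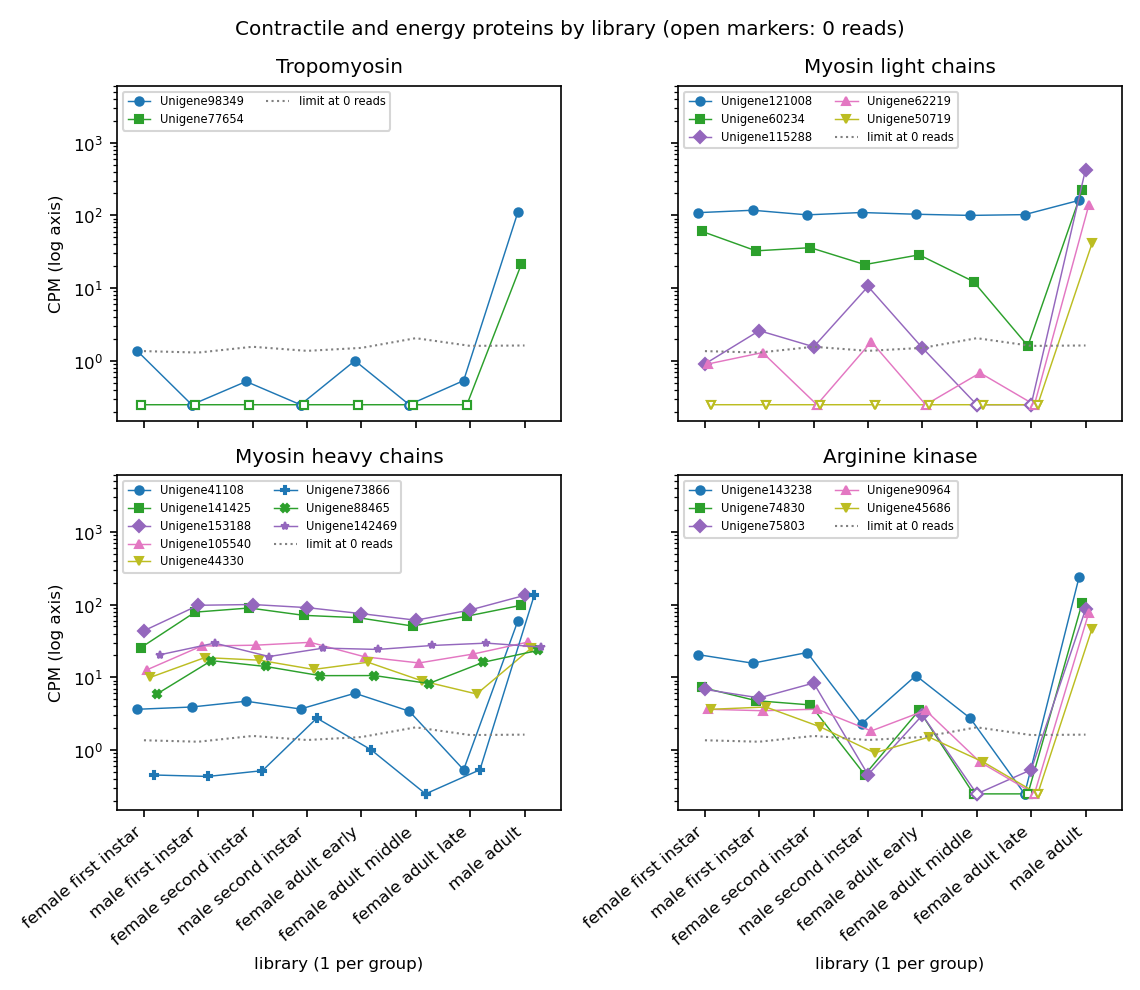
Level in CPM on a log axis of each tropomyosin, myosin light chain, myosin heavy chain and arginine kinase unigene in the 8 libraries; open markers at the bottom are libraries with 0 reads and the dotted line is the level of 3 reads. The lines climb at the male adult for tropomyosin, 4 light chains, 2 heavy chains and all 5 arginine kinases. The regulatory light chain (Unigene121008) stays between 99.95 and 161 CPM and is highest in male adults. The 6 other heavy chains, called non-muscle, are under 4-fold apart between the adult sexes. Of these, Unigene141425 is 3.09-fold higher in male than in female first-instar larvae.

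Of the heavy chains, the motor subunits of myosin, 1 unigene matched a muscle isoform (Unigene41108_FOB). It had 8 and 9 reads at the first instar, 9 and 8 at the second, 12, 5 and 1 in female adults and 111 in male adults. It was 9.98-fold higher in male than in early female adults (5.49 to 19.9) and passed the edgeR test (log2 difference 4.57 ± 0.81 SE, Benjamini-Hochberg adjusted p = 0.0389). A heavy chain matched as nonmuscle or smooth muscle (Unigene73866_FOB) had 1, 1, 1 and 6 reads in larvae, 2, 0 and 1 in female adults and 249 in male adults. Its log2 difference was 8.19 ± 0.76 SE (edgeR, Benjamini-Hochberg adjusted p = 0.0105), a pattern over libraries like that of the alkali light chain. Both Unigene41108_FOB and Unigene73866_FOB reached the read minimum in male adults alone, so that they had to be higher there. The other 6 unigenes called non-muscle differed less: 0 of them was 4-fold apart between the adult sexes at any stage, and the largest, Unigene153188_FOB, had 246 reads in male and 149, 89 and 157 in female adults.

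Myosin light chain kinase, which phosphorylates the regulatory light chain and whose gene in Drosophila also encodes long titin-like proteins, was represented by 14 unigenes. All 14 were highest in male adults. Their sum was 335 and 381 CPM in female and male first-instar larvae, 534 and 563 at the second instar, 565, 243 and 161 through the female adult stages and 1799 in male adults. The male adult sum was 3.18-fold the early (2.97 to 3.41) and 11.2-fold the late female sum (9.93 to 12.6). By edgeR with Benjamini-Hochberg adjustment 3 of the 14 passed, led by Unigene124174_FOB with 120 reads in male adults and 18, 6 and 6 in female adults (log2 difference 3.97 ± 0.64 SE, adjusted p = 0.0300).

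No paramyosin was 4-fold higher in male than in female adults at any stage, which also held for the regulatory light chain and 6 of the heavy chains called non-muscle. Its 10 unigenes summed to 262 and 294 CPM at the first instar, 348 and 433 at the second, 289, 390 and 409 through the female adult stages and 268 in male adults. None of the 10 was highest in male adults (2 under TMM scaling), 5 being highest in male second-instar larvae (4 under TMM). The male adult sum was 0.929 of the early female sum (0.822 to 1.05), which turned to 1.35 under TMM scaling, and 0.657 of the late female sum (0.585 to 0.736), or 0.937 under TMM. By edgeR with Benjamini-Hochberg adjustment 0 of 10 passed, 0 had an unadjusted p under 0.05, and the median log2 difference was 0.05. Per length the most abundant, Unigene71541_FOB, stood at 316 RPKM in late female and 218 RPKM in male adults. One paramyosin (Unigene113652_FOB) was the only member 4-fold lower in male adults than in any female stage, with 9 reads against 25, 33 and 37. It passed against the middle stage alone, and not with TMM scaling or with 5 CPM added in place of 1.

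Arginine kinase, the energy buffer of arthropod muscle, had the largest adult difference of the 7 roles by summed level, with a log2 ratio of 5.95 of male adults over the mean of the female adults. The longest of its 5 unigenes (Unigene143238_FOB, 449 bases) had 45 and 36 reads in female and male first-instar larvae, 42 in female and 5 in male second-instar larvae, 21, 4 and 0 through the female adult stages, and 434 in male adults. The next (Unigene74830_FOB) had 16 and 11 reads at the first instar, 8 in female and 1 in male second-instar larvae, 7, 0 and 0 in female adults and 196 in male adults. Both were low in second-instar males and absent from the reads of late females. Summed over the 5, the level was 41.8 and 33.0 CPM at the first instar, 40.2 in female and 5.96 in male second-instar larvae, 22.1, 4.11 and 0.536 CPM in female adults and 552 CPM in male adults. The male adult sum was 24.9-fold the early (18.4 to 34.5) and 134-fold the middle female sum (61.5 to 367), and 92.6-fold the male second-instar sum (53.9 to 175). All 5 were 4-fold higher against each female stage, and 4 of them reached the read minimum in male adults alone. An arginine kinase below the minimum (Unigene29714_FOB) had 12, 12, 4 and 0 reads in the larval libraries, 4, 0 and 0 in female adults and 5 in male adults. By edgeR with Benjamini-Hochberg adjustment 4 of 5 passed, with log2 differences from 6.08 to 6.74, and the longest unigene did not (adjusted p = 0.0553). The match of 1 of the 5 (Unigene45686_FOB) was to the nematode Bursaphelenchus xylophilus, and it followed the same order with 86 reads in male adults and 3, 1 and 0 in female adults.

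The calcium pump of the sarcoplasmic reticulum (Unigene89387_FOB), which returns calcium to the store after contraction, had 115 and 80 reads in female and male first-instar larvae, 91 and 168 at the second instar, 134, 64 and 44 through the female adult stages and 1053 in male adults. Per length it was the most abundant of the 143 members in the male adult library, at 2661 RPKM. It was read in all libraries, and only the male adult library stood apart. The male adult level was 8.48-fold the early (7.08 to 10.2) and 24.2-fold the late female level (17.9 to 33.6), and the edgeR log2 difference was 4.09 ± 0.61 SE (Benjamini-Hochberg adjusted p = 0.0243). Sarcoplasmic calcium-binding protein (Unigene107978_FOB), a soluble calcium buffer of invertebrate muscle, had 36, 47, 54 and 16 reads in larvae, 38, 15 and 3 in female adults and 78 in male adults, and did not pass the test (edgeR, Benjamini-Hochberg adjusted p = 0.199).

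The giant proteins took 33.7% of the members' reads in late female adults, 47.5% in male adults and 50.2% to 63.2% in 5 of the other 6 libraries, male first-instar larvae lying below that range. Their summed log2 ratio of male over female adults was 1.80, beside 1.83 for the thick filament and 1.32 for the Z-disc. The 53 titin unigenes summed to 1357 and 1294 CPM in female and male first-instar larvae, 3370 and 3093 at the second instar, 2948, 1314 and 811 through the female adult stages and 6334 in male adults. Of these, 41 were highest in male adults and 9 in female second-instar larvae (52 and 1 under TMM scaling). The male adult sum was 2.15-fold the early (2.08 to 2.22), 4.82-fold the middle (4.59 to 5.06) and 7.81-fold the late female sum (7.40 to 8.25). Of the 53, 4 were 4-fold higher against all 3 female stages and 3 passed edgeR with Benjamini-Hochberg adjustment, among them Unigene145441_FOB with 226 reads in male adults and 55, 21 and 19 in female adults.

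Kettin is the titin-family protein at the insect Z-disc, and where it was highest depended on the scaling. Its 9 unigenes summed to 175 and 153 CPM at the first instar, 579 and 482 at the second, 483, 283 and 174 through the female adult stages and 662 in male adults, and 7 of the 9 were highest in female second-instar larvae. Under TMM scaling all 9 were highest in male adults. The largest adult difference was that of the longest piece (Unigene155292_FOB, 912 bases), with 479 reads in male adults, 119, 44 and 28 in female adults and 120 and 171 at the second instar. It passed the edgeR test (log2 difference 3.31 ± 0.64 SE, Benjamini-Hochberg adjusted p = 0.0470), and was the only kettin unigene 4-fold apart in adults. Per length the most abundant kettin piece (Unigene70122_FOB) stood at 782 RPKM in female second-instar larvae and 566 RPKM in male adults, a ratio of 0.724 that turned to 1.11 under TMM. The 2 projectin unigenes, whose protein spans the connecting filaments of insect flight muscle, summed to 147 CPM in male adults and 91.1, 41.8 and 24.1 CPM in female adults.

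Muscle LIM proteins, which sit at the Z-disc, summed over 5 unigenes to 130 and 115 CPM at the first instar, 365 and 222 at the second, 337, 141 and 77.2 in female adults and 463 in male adults. The 2 most abundant differed little between male and early female adults, with 361 against 325 reads (Unigene48139_FOB) and 186 against 281 (Unigene44710_FOB). The LIM unigene Unigene56621_FOB had 160 reads in male adults and 31, 17 and 11 in female adults and passed the edgeR test (log2 difference 3.39 ± 0.60 SE, Benjamini-Hochberg adjusted p = 0.0377). Of the pair matched to Mlp84B, a Drosophila muscle LIM protein, 1 (Unigene96613_FOB, with 89 reads in male and 16, 11 and 3 in female adults) was 4-fold higher against every female stage. This unigene reached the read minimum in male adults alone, so that it had to be higher there.

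The M-line protein unc-89, which holds thick filaments in register in Caenorhabditis elegans, was highest in male adults in all 5 of its unigenes. They summed to 291 CPM in male adults and 64.4, 24.6 and 17.7 CPM in female adults. Unigene87259_FOB, with 107 reads in male adults and 10, 8 and 9 in female adults, passed the edgeR test (log2 difference 3.91 ± 0.44 SE, Benjamini-Hochberg adjusted p = 0.0132). This unigene reached the read minimum in male adults alone, so that it had to be higher there.

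Muscle-specific protein 300, which in Drosophila ties muscle nuclei to the cytoskeleton, was high in male adults and also in late females. Its 17 unigenes summed to 237 and 378 CPM in female and male first-instar larvae, 415 and 541 at the second instar, 333, 392 and 871 through the female adult stages and 2172 in male adults. Late females thus stood above early and middle ones, unlike for titin or arginine kinase. The male adult sum was 6.52-fold the early (6.002 to 7.09) and 2.49-fold the late female sum (2.35 to 2.64). By edgeR with Benjamini-Hochberg adjustment 4 of 17 passed, led by Unigene156307_FOB with 1321 reads in male adults and 169, 103 and 281 in female adults (log2 difference 3.22 ± 0.52 SE, adjusted p = 0.0304). The 5 unigenes with muscle in the name, such as phosphorylase b kinase gamma (Unigene79734_FOB) and a caldesmon (Unigene102151_FOB), summed to 66.3 CPM in male adults and 83.6 to 93.3 CPM in female adults, and 0 was 4-fold apart or passed the test. Under TMM scaling their male adult sum turned slightly higher, 1.01 to 1.16 times the female sums.

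Between the sexes of larvae few members were 4-fold apart. At the first instar 0 of 111 tested were higher in males (all unigenes: 0.766%) and 0 lower (2.79%), with a median log2 ratio of 0.16 beside 0.11 for all unigenes. At the second instar 2 of 126 were higher in males (2.64%) and 1 lower (3.67%), with a median of -0.01 beside 0.05. The 2 higher ones were the alkali light chain, with 23 reads in males and 3 in females (6.74-fold, 2.04 to 35.1), and a titin-like protein (Unigene41493_FOB), with 44 against 8 (4.83-fold, 2.25 to 11.9), whose best match was a fish. The lower one was arginine kinase (Unigene143238_FOB), with 5 reads in males and 42 in females, a ratio of 0.105 (0.0323 to 0.264). Summed over all 5 arginine kinases, females were 6.74-fold higher at that stage (3.72 to 13.2). None of the 3 single calls passed with 5 CPM added in place of 1.

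Sex across stages was tested with edgeR over the 8 libraries, with stage as covariate. With Benjamini-Hochberg adjustment 0 of 135 members passed, 27 had an unadjusted p under 0.05, and DESeq2 called 0 members. Of all 51155 unigenes edgeR called 0%. Whether the adult sex difference departs from the larval one was tested as an interaction: edgeR called 0 of 143 members (0% of all unigenes), 55 had an unadjusted p under 0.05, and DESeq2 called 25. DESeq2 also called unigenes outside the members, in both directions. The median interaction was 2.03 on the log2 scale for the members and -0.22 for all unigenes.

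From the first to the second instar 62 of the 64 giant unigenes had ratios above 1 in both sexes, most of them under 4-fold. The exceptions were titin Unigene126202_FOB, with log2 ratios of -1.13 in females and -0.97 in males, and titin Unigene156719_FOB, at 0.83 and -0.10. In females 11 of 117 members tested were 4-fold higher (1.16% of all unigenes) and 0 lower (1.43%), and 105 lay above 0, with a median log2 ratio of 1.05 beside 0.01 for all unigenes. The 11 were 8 titin and 3 kettin unigenes, the most changed by ratio with 1 CPM added being titin Unigene146496_FOB, with 231 reads against 40 (6.63-fold, 4.72 to 9.52). The long titin Unigene153152_FOB had 453 reads against 115 (4.52-fold, 3.68 to 5.60). In males 3 of 124 were 4-fold higher (3.95%) and 1 lower (4.26%), with a median of 0.97 beside -0.04. The 3 were titin Unigene39241_FOB (96 against 18 reads), titin Unigene136877_FOB (125 against 27) and kettin Unigene79521_FOB (93 against 17), and the lower one was arginine kinase Unigene143238_FOB (5 against 36). Summed, titin was 2.48-fold higher in females (2.38 to 2.59) and 2.39-fold in males (2.29 to 2.50), and kettin 3.31-fold and 3.14-fold. With 5 CPM added in place of 1, 3 members were 4-fold higher in females and 0 higher or lower in males. The 2 tropomyosin members had at most 1 read in a second-instar library.

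From the second instar to the adult male, 32 of 142 members were 4-fold higher (10.1% of all unigenes) and 0 lower (17.4%), with a median log2 ratio of 1.04 beside -0.63. Under TMM scaling 54 were higher and 0 lower (all unigenes: 5067 higher and 3882 lower of 35017). The 10 highest by ratio with 1 CPM added were tropomyosin 2, all 5 arginine kinases, 3 myosin light chains and the heavy chain Unigene73866_FOB. Of these, tropomyosin 2, 4 arginine kinases, light chains Unigene62219_FOB and Unigene50719_FOB and the heavy chain reached the read minimum in male adults alone. Their higher level in male adults was thus set by the member rule. The step of the giant proteins was smaller: 2.05-fold for titin (1.99 to 2.11) and 1.37-fold for kettin (1.26 to 1.49), which went to 2.10-fold under TMM. Among the 64 giant proteins, the female step from first to second instar and the male step to the adult ran in opposite order over the unigenes, with Spearman's rho of -0.67 and Pearson's r of -0.61. Both steps come from different libraries, and the unigenes share the genes they are pieces of. The 46 giant unigenes with a male adult step under 2-fold had a median length of 215 bases and a median larval log2 step of 1.71 in females and 1.31 in males. The 18 with a step of at least 2-fold had a median length of 529.5 bases and median larval steps of 0.95 in females and 1.22 in males, so that the groups were close in the males' own larval step. That step shares the male second-instar library with the adult step, and the split at 2-fold was chosen after the values were seen. Under TMM scaling 26 lay under 2-fold and 38 at or above it, with median female larval steps of 1.83 and 1.05. The part of length in this order was not tested beyond its own rho of 0.50 with the adult male step.

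**Figure D4:**
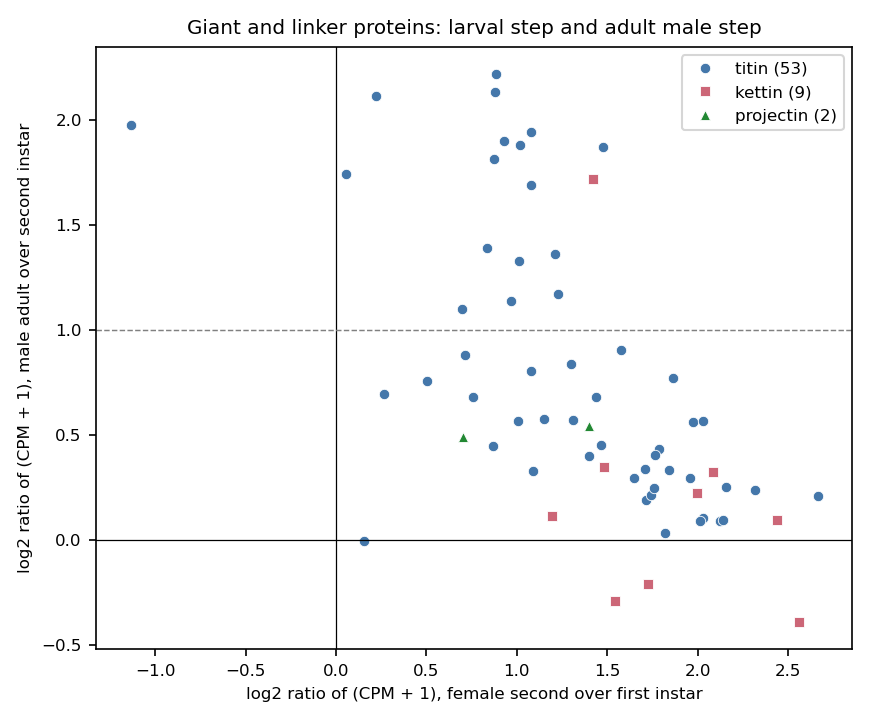
Each point is a titin, kettin or projectin unigene, placed by its log2 ratio of (CPM + 1) from the first to the second instar in females (horizontal) and from the second instar to the adult in males (vertical); the dashed line marks 2-fold. Unigenes with a large larval step lie low, 46 of 64 below the dashed line (26 under TMM scaling, not drawn), and the 18 above it lie at larval steps under 1.5.

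In females, 0 of 117 members were 4-fold higher in early adults than in second-instar larvae (1.23%) and 0 lower (0.119%). The median log2 ratio was -0.30 beside -0.08 for all unigenes, and 85 of the 117 lay below 0. From the early to the middle adult stage 0 of 116 were 4-fold higher (2.77%) and 7 lower (7.6%), 6 of them titin and 1 unc-89 (Unigene62271_FOB, 2 against 25 reads), a count that was 3 with 5 CPM added. At this step the median log2 ratio was -0.87 beside -0.02 for all unigenes, and 95 of the 116 lay below 0. The titin Unigene146830_FOB had 42 reads at the middle and 326 at the early stage, a 5.71-fold difference (4.13 to 8.07). From the middle to the late stage 0 of 91 were 4-fold higher (3.89%) and 0 lower (4.47%), with a median of -0.34 beside 0.11. Set side by side, late against early female adults, a comparison added after the data were seen, gave 35 of 120 members 4-fold lower (12.7%) and 4 higher (5.18%), with a median log2 ratio of -1.45 beside 0.09 for all unigenes. With 5 CPM added 16 were lower and 0 higher.

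Of the 35 lower in late females 26 were titin, and the others included arginine kinase Unigene143238_FOB (0 against 21 reads), light chain Unigene60234_FOB (3 against 57) and the LIM protein Unigene44710_FOB (26 against 281). Summed, titin was 3.63-fold lower (3.44 to 3.85), muscle LIM proteins 4.37-fold (3.64 to 5.26), unc-89 3.64-fold (2.47 to 5.51), myosin light chain kinase 3.51-fold (3.09 to 4.004) and arginine kinase 41.3-fold (7.04 to 1668), the last on 1 read in late females. The 4 higher in late females were all muscle-specific protein 300, such as Unigene157494_FOB with 238 against 61 reads (4.16-fold, 3.13 to 5.60), and all 16 of its unigenes tested lay above 0. Its sum was 2.62-fold higher (2.39 to 2.87), and paramyosin was 1.42-fold higher (1.27 to 1.58). Unigenes of the fat body and yolk list, at 308 CPM in early and 2133 CPM in late females, moved in the same libraries. Of the late level 583 CPM came from the vitellogenin receptor. Their part in these differences was not tested.

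**Figure D5:**
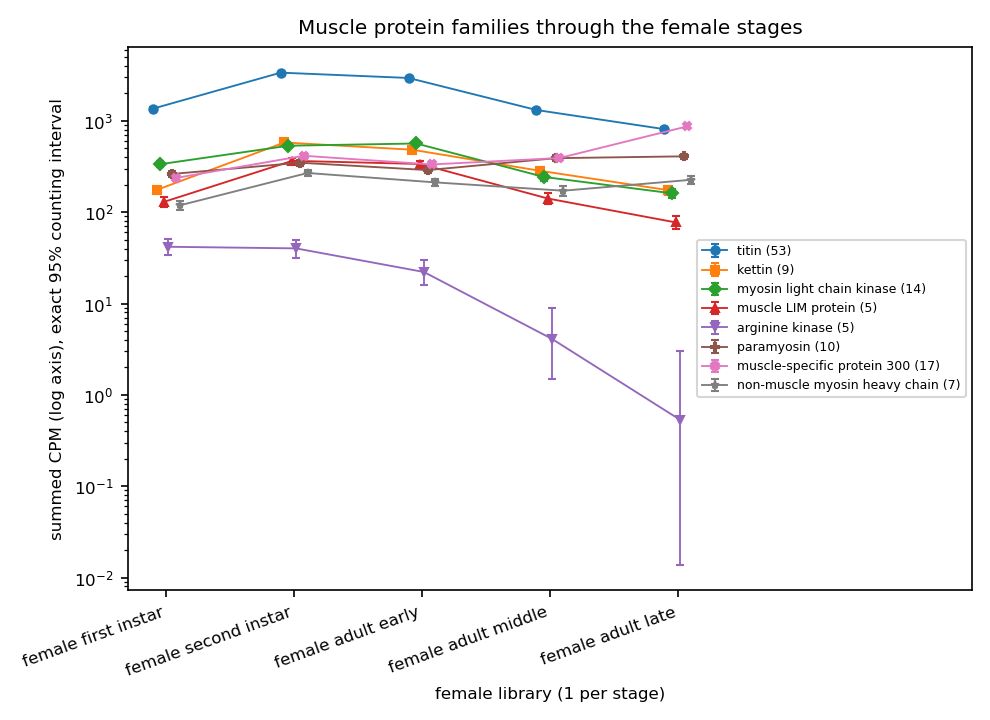
Summed CPM on a log axis of 8 protein families in the 5 female libraries, with exact 95% Poisson intervals. Titin, kettin, the light chain kinase and LIM proteins peak at the second instar or the early adult and are lowest or near lowest in late adults, arginine kinase reaches 0.536 CPM, and muscle-specific protein 300 ends at 871 CPM.

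Other genes with names tied to muscle were taken from lists of match names. Their counts stand beside 2.61% of all unigenes higher and 0.67% lower in adult males, with a median log2 difference of -0.24. Some entered through a shared word. Among them were twisted gastrulation (Unigene151126_FOB), the most read of the muscle formation list, and a calmodulin-binding protein trpl (Unigene137826_FOB) of the calcium list. Of 42 unigenes for the fuel of flight muscle, 6 were higher in adult males by edgeR with Benjamini-Hochberg adjustment and 0 lower, with a median log2 difference of 0.34. Citrate synthase (Unigene122804_FOB), the entry step of the citric acid cycle, had 62, 102, 63 and 69 reads in larvae, 43, 27 and 42 in female adults and 1701 in male adults (edgeR log2 difference 5.87 ± 0.43 SE, Benjamini-Hochberg adjusted p = 0.0104). Glycerol-3-phosphate dehydrogenase (Unigene107240_FOB), part of the shuttle that feeds insect flight muscle mitochondria, had 100, 70, 108 and 168 reads in larvae, 65, 134 and 58 in female adults and 1634 in male adults (edgeR log2 difference 4.51 ± 0.68 SE, Benjamini-Hochberg adjusted p = 0.0248). Trehalase, which splits the blood sugar of insects, gave 460 reads in male adults and 210, 175 and 50 in female adults for Unigene134944_FOB. The other trehalase, Unigene42353_FOB, gave 50 in male adults and 263, 218 and 15 in female adults, so that males lay below early and middle females and above late ones, and neither unigene passed.

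Of 58 unigenes of calcium handling and excitation, 5 were higher and 1 lower in adult males by the same edgeR test, with a median log2 difference of 1.53. Of 33 other myosin heavy chains, actins and their partners 4 were higher and 0 lower, among them Filamin-C (Unigene153359_FOB), an actin crosslinker of the Z-disc in vertebrates, with 1091 reads in male and 176, 125 and 129 in female adults (log2 difference 3.28 ± 0.40 SE, Benjamini-Hochberg adjusted p = 0.0152). The most read beta-actin (Unigene23048_FOB) had 536 reads in male and 443, 314 and 134 in female adults and did not pass. Other actins among the most read had fewer reads in male than in female adults and did not pass either. Unigene154075_FOB had 36 reads in male and 153, 126 and 200 in female adults, and Unigene114024_FOB had 67 against 99, 97 and 86. Their edgeR log2 differences, with TMM, were -1.79 and -0.16, the second near the -0.24 of all unigenes. Of 98 unigenes of cell attachment and the dystrophin complex 0 passed in either direction (24 with an unadjusted p under 0.05), with a median log2 difference of -0.53. Among its most read members integrin-linked kinase (Unigene148919_FOB) had 353 reads in male and 166, 92 and 85 in female adults, while a laminin A chain (Unigene148929_FOB) had 59 against 181, 142 and 295 and dystroglycan (Unigene149796_FOB) 64 against 140, 77 and 108. Of 7 unigenes of the muscle formation list 0 passed (2 with an unadjusted p under 0.05).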

How the data were processed

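Counts of reads assigned uniquely to each unigene, per the file headers, were used as deposited; a unigene not listed was taken as 0 reads. The RPKM that the authors deposited matched reads, length and header total and was used for levels per length. Coverage in percent of the unigene, per the file headers, was not tested. No source used here gives the aligner, assembler, annotation or strand setting. Levels (CPM) are reads scaled by the header total. Members, lists and comparisons were chosen with earlier results of these data known. Named unigenes were, per role, up to 4 with the highest mean RPKM, those past 4-fold and those called by a test (10 per direction at most), and the 4 most read per list. Ratio intervals are exact conditional binomial at 95%, against 0 reads at a floor of 3 reads per library. Tests used edgeR 4.0.16 (TMM, filterByExpr, 3 residual degrees of freedom for adults and 4 across stages); DESeq2 1.42.0, header totals, no filter and leaving out each library were alternatives. Adult p-values measure the spread among stages. Each SE is the size of the log2 difference divided by the square root of its F statistic. The test scripts were tested on simulated data.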

Additional observations from a re-analysis of the deposited data

Results flagged for a closer look

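The longest arginine kinase unigene (Unigene143238_FOB) had opposite sex differences at 2 stages. At the second instar the log2 ratio of male over female, with 1 CPM added, was -2.80, on 5 reads in the male and 42 in the female library. In adults the male library was 4-fold above all 3 female libraries, with 434 reads against 21, 4 and 0. The difference between the adult and the larval sex difference was 7.80 on the log2 scale and did not pass (edgeR, Benjamini-Hochberg adjusted p = 0.153). The other 4 arginine kinase unigenes had too few reads at the second instar to be tested.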

How the results depend on the processing

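Over the alternatives 138 values stayed within the limit set for a count or level, and 48 did not. A count stayed when it was equal to the main count or within a set fold of it. A level stayed when it moved by no more than its counting error. Counts of 0 that remained 0 are among the 138. Counts are of members, and many settings also moved the counts over all unigenes. The cause of a change was not tested unless the alternative tests fewer unigenes. With TMM factors, 54 members were 4-fold higher in male adults than in second-instar males (all unigenes: 5067 of 35017). Against all 3 female adult libraries 45 members were higher (all unigenes: 3568 of 26437). With 5 CPM added, or with at least 100 reads required, 0 were higher or lower between the sexes at the second instar. With 5 CPM the counts were 3 for the second over the first instar in females, 3 lower from early to middle female adults, 0 higher and 0 lower for that larval step in males, and 0 higher and 16 lower in late against early females. With 100 reads they were 5, 4, 1 higher and 0 lower, and 1 higher and 17 lower. With no read minimum, 2 were lower in second-instar males than females, 1 was higher from early to middle and 2 lower from middle to late female adults, and 2 lower for the larval step in males. With arthropod matches alone 1 was higher in second-instar males, and without the 27 other proteins 0 were higher in late females. Against all 3 female stages, the count was 29 to 59 with 1 female library left out, the highest without the early one.

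In the adult edgeR test 12 members passed with header totals, 79 with no filter and 49 with DESeq2. Leaving out 1 library gave 0 to 87. All 24 called members were higher in males in every setting, and 12 of the 24 passed with header totals. Sex across stages gave 6 with no filter, and the interaction 25 with DESeq2. The log2 ratio of summed levels, male over the mean of female adults, went with TMM from 5.95 to 6.49 for energy, 1.80 to 2.33 for giant proteins, 1.83 to 2.36 for the thick filament, 1.32 to 1.86 for the Z-disc, 3.47 to 4.003 for the calcium store and 1.95 to 2.47 for the other proteins. Without the most read member it was 1.74 for giant proteins, 3.76 for the thin filament (5.28 with it), 1.92 for the thick filament, 1.62 for the Z-disc, 2.04 for the calcium store and 1.71 for the others. No paired analysis was possible because each group holds replicate number 1 only. At these depths 0 reads allow a level of up to 1.30 to 2.05 CPM.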
